A study of Zea mays with 18 samples.

Results

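The homeobox genes wox9A (GRMZM2G133972), wox13A (GRMZM2G069274) and OCL14 (GRMZM2G145690, HDZIV14_OCL14 in the reference) were taken by name as candidate genes of embryo patterning, and make up 3 of the 39475 gene IDs counted in the series. Cells were isolated from maize (Zea mays) and their polyadenylated RNA was sequenced to follow gene expression through fertilization and the first division of the zygote. All cells came from untreated wildtype plants of the inbred line B73, and each of 6 groups had 3 libraries. The groups were sperm cells (1000 per library), egg cells (20 per library), zygotes at 12 h (14 to 15 per library) and at 24 h (16 to 17 per library), and the 2 daughter cells of the zygote, the apical cell (16 per library) and the basal cell (13 to 14 per library). The labels give zygote ages in hap, read here as hours after pollination.

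Homeobox genes encode transcription factors that bind DNA through a homeodomain. The WUSCHEL-related homeobox (WOX) family organises stem cell niches and the early plant embryo; in Arabidopsis, the zygote divides unequally and relatives of WOX9 act in the basal lineage while WOX2 acts in the apical one. The WOX13 clade is shared by mosses and flowering plants. OCL14 belongs to class IV of the homeodomain-leucine zipper (HD-ZIP) proteins, which carry a lipid-binding START domain; in maize many of them are named for the outer cell layer, and in Arabidopsis members of the class specify the epidermis from early embryo stages onward.

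Depth was 11128444 to 25771168 counts per library, and counts were scaled by TMM (trimmed mean of M values) to CPM, that is counts relative to the scaled size of the library. CPM are shares of a library's RNA, so a lower value from fewer cells holding a transcript and one from less of it per cell cannot be told apart. CPM were not divided by transcript length and are compared between groups, not between genes. The sperm marker hap2, a gamete fusion gene, was at 586 to 923 CPM in sperm libraries and at 0.242 to 8.62 CPM in all others. The embryo sac genes es1, es2 and es4 summed to 574 to 3786 CPM in eggs, 1660 to 1949 CPM in 12 h zygotes, 595 to 1581 CPM in 24 h zygotes, 22.5 to 30.03 CPM in apical cells and 98.5 to 154 CPM in basal cells. The 6 endosperm markers summed to 0 to 0.116 CPM in sperm, 14.4 to 81.7 CPM in eggs, 20.3 to 25.2 CPM at 12 h, 10.4 to 35.9 CPM at 24 h, 0.727 to 1.56 CPM in apical and 1.32 to 7.54 CPM in basal libraries; zp27, a storage protein gene, made up most of the egg and zygote sums, and ESR3 and MEG1 were at 0 counts in every library. The 9 markers of pollen other than sperm summed to 907 to 1142 CPM in sperm, 17.3 to 37.1 CPM in eggs, 201 to 285 CPM at 12 h, 65.1 to 96.2 CPM at 24 h, 19.3 to 119.9 CPM in apical and 11.1 to 22.6 CPM in basal libraries. Of these, adf1 was at 216 CPM at 12 h and 48.5 CPM in sperm on average; without adf1 and prf1 the other 7 summed to 750 to 948 CPM in sperm and to 8.49 CPM or less elsewhere, except 84.8 CPM in apical replicate 1. The part of these markers in the values of the 3 genes was not tested.

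wox9A was highest in the zygote: it had 0 counts in all egg libraries, was high at 12 h and 24 h, and was lower in both daughter cells. Its levels in the zygotes at 12 h were 10.2, 8.49 and 11.9 CPM, with a mean of 10.2 ± 1.70 CPM (SD, n = 3). At 24 h the libraries held 6.89, 7.95 and 13.2 CPM, with a mean of 9.33 ± 3.36 CPM (SD, n = 3). The libraries of the 2 zygote ages overlapped, and every zygote library was above every library of the gametes and the daughter cells.

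In apical cells wox9A was at 1.83, 1.46 and 0.485 CPM, with a mean of 1.26 ± 0.696 CPM (SD, n = 3), which came from 46, 31 and 10 counts. In basal cells it was at 2.39, 2.59 and 2.44 CPM, with a mean of 2.47 ± 0.104 CPM (SD, n = 3). All 3 basal libraries lay above all 3 apical libraries, a difference that edgeR did not call (adjusted p = 0.976). In sperm, 4 counts in replicate 1 and 0 in the others gave 0.154 CPM, with an exact 95% Poisson interval of 0.0340 to 0.319 CPM on the summed counts. The 0 counts in eggs allow up to 0.0670 CPM, the value of 3 counts over the 3 libraries; such intervals and floors cover counting error only.

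**Figure D1:**
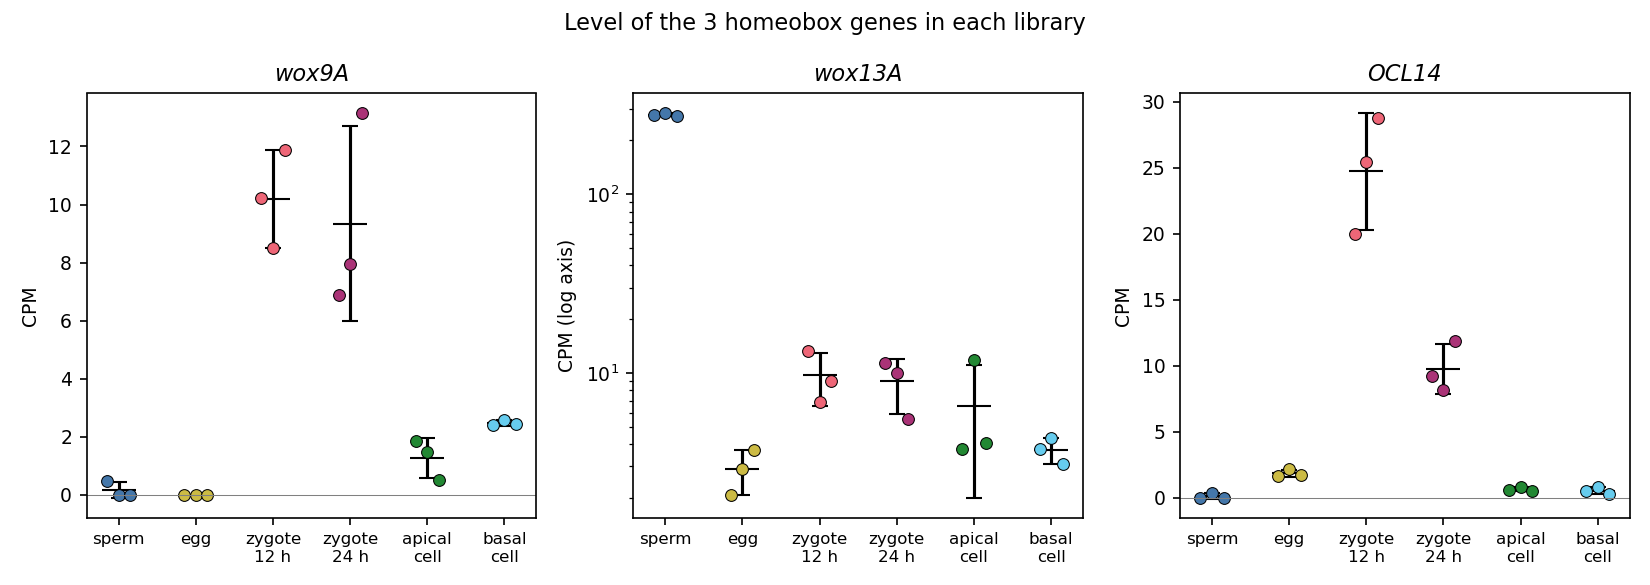
Level of wox9A, wox13A and OCL14 in CPM (vertical axis, logarithmic for wox13A) in each of the 18 libraries by group; points are libraries, horizontal bars the mean and vertical bars the SD. wox9A and OCL14 are highest in the zygotes, and wox13A lies at 274 to 286 CPM in sperm and at 13.2 CPM or less in every other library.

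Tests used edgeR's quasi-likelihood fit across all genes with Benjamini-Hochberg adjustment, a gene being called at an adjusted p under 0.05; a ± after a log2 value is an approximate standard error. Whether replicates were drawn from different plants is not in the labels, so each p-value reflects the spread among these libraries alone, which could be technical. wox9A rose between egg and the 12 h zygote, at least 152-fold against the egg floor (edgeR adjusted p = 3.22e-05), in a comparison that called 37.4% of the genes tested, 19.4% as higher and 18.1% as lower. At 24 h it stood at least 139-fold above the egg floor (edgeR adjusted p = 2.74e-05), where 32.4% of genes were called. The 24 h and 12 h zygotes differed by a log2 fold change of -0.14 ± 0.56 (edgeR adjusted p = 0.967), in a comparison that called 1.04% of genes, 1% as higher.

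After division wox9A fell in the apical cell, by a log2 fold change of -2.94 ± 0.60 from the 24 h zygote (edgeR adjusted p = 0.00535; 24.9% of genes called, 13% as higher and 11.8% as lower). In the basal cell it was also called lower than in the 24 h zygote, at -1.97 ± 0.58 (edgeR adjusted p = 0.0348; 18% of genes called, 9.81% as higher and 8.15% as lower). This second call did not hold without any 1 of the 6 libraries: the log2 fold change then ran from -2.14 without zygote 24 h replicate 1 to -1.64 without zygote 24 h replicate 3, with adjusted p from 0.0590 to 0.137. It was also lost with all 18 libraries in the fit (-1.93, adjusted p = 0.124) and with genes of low count kept in (-2.01, adjusted p = 0.0545).

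Against the 12 h zygote, wox9A was lower in both the apical cell (-3.08 ± 0.61, edgeR adjusted p = 0.00258; 33.4% of genes called) and the basal cell (-2.11 ± 0.58, edgeR adjusted p = 0.0180; 29.2% of genes called). The second of these calls was lost with all 18 libraries (adjusted p = 0.0780) and without zygote 12 h replicate 3, basal cell replicate 1 or basal cell replicate 3 (adjusted p from 0.0586 to 0.0615). Both daughter cells stayed above the egg: the apical cell at least 18.8-fold (edgeR adjusted p = 0.000199; 35.2% of genes called) and the basal cell at least 36.9-fold (edgeR adjusted p = 8.23e-05; 32.2% of genes called).

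Between the daughter cells, wox9A was at a log2 fold change of -0.97 ± 0.57, apical over basal, and was not called (edgeR adjusted p = 0.976). The libraries did not overlap, but the share of all genes that separate in this way was not counted. The separation alone therefore does not show a difference. That comparison called 0% of genes with edgeR, with 1267 of the 23806 genes tested at an unadjusted p under 0.05. A share of about 0.05 would fall under that limit without any difference. DESeq2 called 29 as higher and 52 as lower in the apical cell, of 24278 genes tested. Across the 16 alternatives tried for wox9A the value ran from -1.32 to -0.60, with no call. In order of level, the neighbouring groups not called apart were the 12 h and 24 h zygotes, which overlapped, and the basal and apical cells, which did not. Sperm lay below both zygote ages (adjusted p = 0.000131 and 0.000157 with edgeR; 73.7% and 72% of genes called) and below apical and basal cells (adjusted p = 0.0135 and 0.00252; 68.4% and 68.5% of genes called). The call of sperm over egg (edgeR adjusted p = 0.0358; 63.9% of genes called, 24.7% as higher and 39.3% as lower) rested on the 4 counts of sperm replicate 1, without which both groups were at 0 and the adjusted p was 1.

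wox13A was highest in the sperm cell. The sperm libraries held 276, 286 and 274 CPM, with a mean of 279 ± 6.16 CPM (SD, n = 3), from 2392, 3582 and 2988 counts. The eggs held 2.09, 2.89 and 3.69 CPM, with a mean of 2.89 ± 0.801 CPM (SD, n = 3), or 1.04% of the sperm mean. Sperm and egg libraries were far apart, and no other library came within the sperm range.

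Sperm exceeded egg by a log2 fold change of 6.55 ± 0.51 (edgeR adjusted p = 1.08e-08). Over all genes tested the median of this comparison was -0.80 under TMM, and it was -0.47 with RLE size factors, -0.31 with upper-quartile scaling and -1.80 with library size only. wox13A ran from 5.58 to 7.04 over 16 alternatives and was called in each. Sperm also exceeded the 12 h zygote by 4.80 ± 0.47, the 24 h zygote by 4.94 ± 0.47, the apical cell by 5.43 ± 0.48 and the basal cell by 6.21 ± 0.50, in log2 units, with edgeR adjusted p from 1.71e-08 to 1.41e-07. The summed level of all 9 markers of pollen other than sperm was also highest in the sperm libraries, at 907 to 1142 CPM, and their part in the wox13A level was not tested.

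In the zygotes wox13A was low but above the egg. The 12 h libraries held 13.2, 6.92 and 9.03 CPM, with a mean of 9.72 ± 3.20 CPM (SD, n = 3), and the 24 h libraries 11.4, 10.01 and 5.53 CPM, with a mean of 8.97 ± 3.05 CPM (SD, n = 3). Each zygote library lay above each egg library, and the 2 zygote ages overlapped. The rise from egg to 12 h was 1.78 ± 0.55 in log2 units (edgeR adjusted p = 0.0204), and that from egg to 24 h was 1.66 ± 0.55 (edgeR adjusted p = 0.0319). The sperm marker hap2 was at 3.11 to 8.62 CPM in eggs, 4.88 to 6.16 CPM at 12 h and 2.79 to 5.74 CPM at 24 h, so its egg and zygote ranges overlapped. The part of sperm RNA in the zygote values of wox13A was not tested.

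The 12 h call did not hold without zygote 12 h replicate 1 (1.51, adjusted p = 0.0769) or with only the egg and 12 h libraries in the fit (1.97, adjusted p = 0.0658). The 24 h call was lost without egg replicate 1, egg replicate 2, zygote 24 h replicate 1 or zygote 24 h replicate 2 (adjusted p from 0.0514 to 0.10) and with the 2 groups alone (adjusted p = 0.0829).

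In apical cells wox13A was at 3.75, 11.8 and 4.07 CPM, with a mean of 6.53 ± 4.55 CPM (SD, n = 3), so that replicate 2 alone reached zygote levels. In basal cells it was at 3.76, 4.31 and 3.09 CPM, with a mean of 3.72 ± 0.612 CPM (SD, n = 3). The basal libraries lay below all zygote libraries and overlapped the eggs and the apical cells. The sperm marker hap2 was at 1.75, 3.54 and 0.242 CPM in apical replicates 1, 2 and 3, highest in the library with the high wox13A value. The 9 markers of other pollen cells summed to 119.9, 27.0 and 19.3 CPM there, and the part of either in the wox13A value was not tested.

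Neither daughter cell was called against the 24 h zygote: the apical cell was at -0.52 ± 0.53 (edgeR adjusted p = 0.50) and the basal cell at -1.32 ± 0.54 (edgeR adjusted p = 0.102). The basal value passed the threshold in 3 of 17 alternatives: all 18 libraries in the fit (-1.28, adjusted p = 0.0453), the 2 groups alone (-1.34, adjusted p = 0.0330) and DESeq2 (-1.33, adjusted p = 0.0339), with adjusted p from 0.0330 to 0.250 over all 17. Against the 12 h zygote neither was called, with the apical cell at -0.64 ± 0.53 (edgeR adjusted p = 0.372) and the basal cell at -1.45 ± 0.54 (0.0577). The basal value was called with RLE, upper-quartile or library-size scaling, and with a filter of 10 counts in 6 libraries. It was also called with all 18 libraries, the 2 groups alone and DESeq2 (adjusted p from 0.0107 to 0.0497 over these settings). The apical and basal cells differed by 0.81 ± 0.54 (edgeR adjusted p = 0.993). Below sperm, the order of levels was 12 h zygote, 24 h zygote, apical cell, basal cell and egg, and no neighbours in that order were called apart, each pair having overlapping libraries.

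A further ID, GRMZM2G038252, is matched to the same reference gene as wox13A. It held 153, 298 and 240 counts in sperm and 1, 4 and 5 in eggs, with means of 21.1 CPM in sperm, 0.220 CPM in eggs, 0.852 CPM and 1.06 CPM in the zygotes, 0.587 CPM in the apical cell and 0.418 CPM in the basal cell. It was thus highest in the same group, with sperm over egg at 6.50 ± 0.81 in log2 units (edgeR adjusted p = 2.31e-06). Reads could have been split between the IDs, so both were also summed, an alternative chosen after seeing the data: sperm over egg was then 6.55 (adjusted p = 9.46e-09) and 12 h over egg 1.80 (adjusted p = 0.0175).

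**Figure D2:**
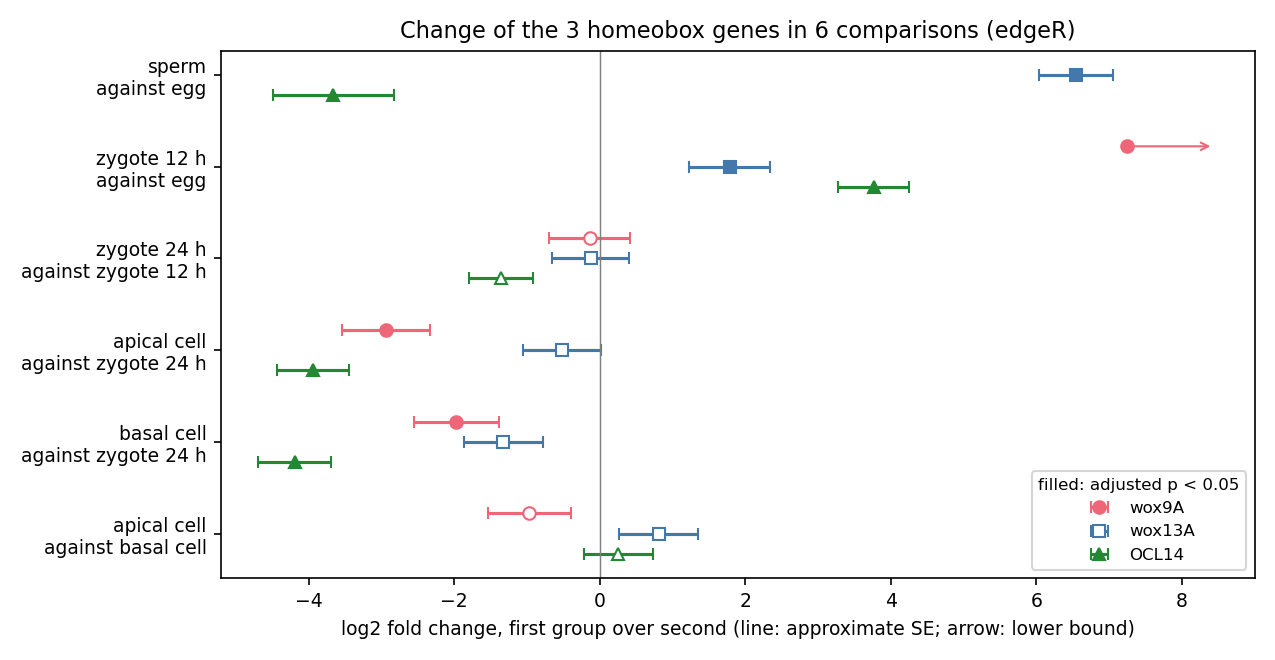
log2 fold change (horizontal axis, first group over second) of wox9A, wox13A and OCL14 in 6 comparisons, with approximate SE; filled symbols have an edgeR adjusted p under 0.05. The arrow marks wox9A, 12 h zygote against egg, as a lower bound of 152-fold; wox9A, sperm against egg, is left out because it rests on 4 counts. wox13A is far to the right in sperm, and OCL14 is at 3.76 for 12 h against egg and at -3.94 and -4.19 in the daughter cells.

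OCL14 was highest at 12 h and under 1 CPM in every library of the daughter cells. The 12 h zygotes held 20.0, 25.4 and 28.8 CPM, with a mean of 24.8 ± 4.43 CPM (SD, n = 3). The eggs held 1.67, 2.17 and 1.75 CPM, with a mean of 1.86 ± 0.267 CPM (SD, n = 3), or 7.53% of the peak. Sperm held 5 counts in replicate 2 and 0 in the others, a mean of 0.133 CPM with an exact 95% Poisson interval of 0.0506 to 0.363 CPM on the summed counts. The egg, sperm and 12 h libraries did not overlap.

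OCL14 rose from egg to 12 h by 3.76 ± 0.49 in log2 units (edgeR adjusted p = 0.000151), and held its call in each of 16 alternatives, which ran from 3.64 to 4.32. At 24 h the libraries held 9.23, 8.21 and 11.9 CPM, with a mean of 9.77 ± 1.89 CPM (SD, n = 3), or 39.5% of the 12 h mean. All 24 h libraries lay below all 12 h libraries and above all egg libraries. The 24 h level exceeded that in eggs by 2.41 ± 0.46 (edgeR adjusted p = 0.00170).

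Between 12 h and 24 h the log2 fold change of OCL14 was -1.35 ± 0.44, with an unadjusted p of 0.00802 and an adjusted p of 0.238 with edgeR. It was called with the 2 zygote ages alone in the fit (-1.34, adjusted p = 0.0361) and with DESeq2 (-1.39, adjusted p = 0.00212), and not in the other 14 alternatives, where adjusted p reached 0.579. Only 0.0378% of genes were called lower at 24 h.

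In apical cells OCL14 was at 0.598, 0.848 and 0.533 CPM, with a mean of 0.660 ± 0.167 CPM (SD, n = 3), from a total of 44 counts. In basal cells it was at 0.559, 0.815 and 0.271 CPM, with a mean of 0.548 ± 0.272 CPM (SD, n = 3), from 33 counts. The 2 daughter cells overlapped, and both lay below all egg and zygote libraries. From the 24 h zygote OCL14 fell in both, with a log2 fold change of -3.94 ± 0.50 in the apical cell (edgeR adjusted p = 0.000345) and -4.19 ± 0.51 in the basal cell (edgeR adjusted p = 0.000641). Both calls held in all 16 alternatives. Apical and basal cells differed by 0.26 ± 0.47 (edgeR adjusted p = 1).

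OCL14 in the daughter cells was also lower than in the egg, by a log2 fold change of -1.52 ± 0.47 in the apical cell (edgeR adjusted p = 0.0206) and -1.78 ± 0.47 in the basal cell (edgeR adjusted p = 0.0110). Both calls were lost with all 18 libraries in the fit (adjusted p = 0.0925 and 0.0617) and with only the 2 groups compared (0.196 and 0.163), and the apical one without apical cell replicate 1 or 3 (0.0591 and 0.0700). Sperm was lower than egg by -3.66 ± 0.83 (edgeR adjusted p = 0.000995), a value that moved to -8.22 without sperm replicate 2, the only sperm library with counts. In order of level, the neighbours not called apart were the 12 h and 24 h zygotes, whose libraries did not overlap, the apical and basal cells, and the basal cell and sperm (edgeR adjusted p = 0.0542). Basal cell and sperm were called apart with library size only (edgeR adjusted p = 0.00498). They were also called apart without sperm replicate 2 (0.000417) or without basal cell replicate 3 (0.0384).

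wox9B (GRMZM2G031882), the relative of wox9A in the same WOX subgroup by name, was likewise at 0 counts in eggs. It held 15.0, 12.3 and 14.7 CPM at 12 h and 4.73, 6.92 and 10.4 CPM at 24 h. It was at 11.8, 7.68 and 0.970 CPM in apical cells and at 12.6, 13.3 and 13.3 CPM in basal cells. The basal libraries lay above all 24 h libraries, where those of wox9A lay below them.

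wox9B rose at least 209-fold from egg to 12 h (edgeR adjusted p = 0.000117). It was not called in the apical cell (-0.16 ± 0.66, edgeR adjusted p = 0.878) or the basal cell (0.78 ± 0.67, edgeR adjusted p = 0.434) against the 24 h zygote. Of the counts of both genes, wox9A took 40.5%, 40.9% and 44.6% at 12 h and 59.3%, 53.5% and 55.9% at 24 h. In the daughter cells it took 13.5%, 16.0% and 33.3% in apical and 15.9%, 16.3% and 15.5% in basal libraries.

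The wox9A share was therefore lower in every daughter library than in every zygote library, and higher in every 24 h library than in every 12 h library. The daughter library nearest to the zygotes, apical replicate 3, rested on 10 counts of wox9A and 20 of wox9B, so its share is imprecise. On the log2 ratio of wox9A to wox9B counts, the basal cell was 2.75 below the 24 h zygote and the apical cell 2.36 below it. A two-sided exact permutation test gave p = 0.1 for each of these, the smallest that 3 against 3 libraries allow, and 0.12 after adjustment over 6 pairs of groups; apical against basal gave exact p = 0.8. The reference entry of wox9A also carries wox9b as a synonym, and the sources used here give no setting for reads that map to several genes, so the split between the pair is uncertain.

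**Figure D3:**
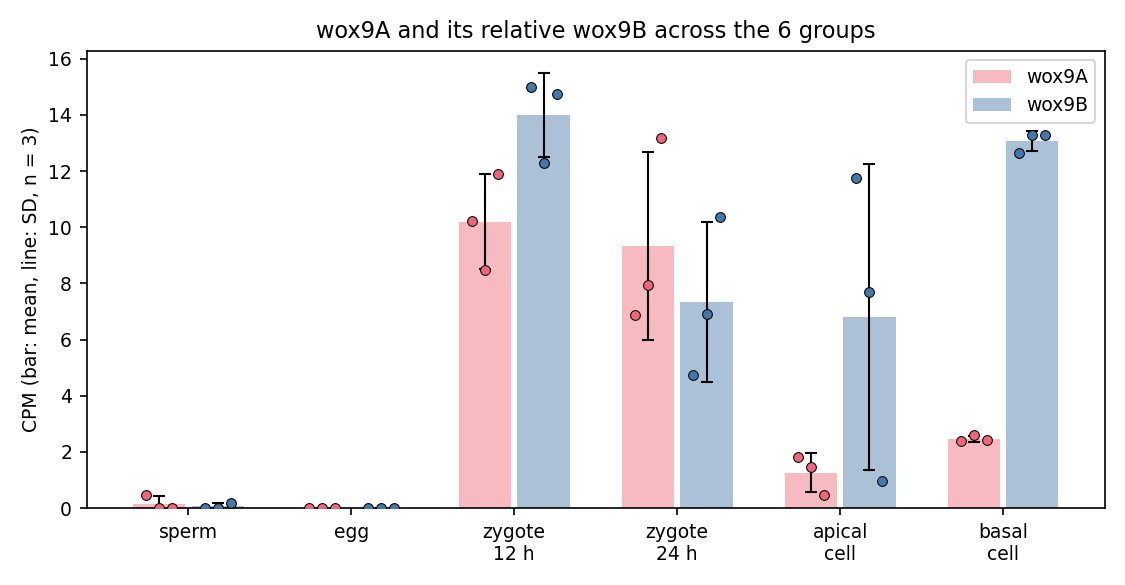
CPM of wox9A and wox9B by group; bars are means, lines SD and points the 3 libraries. Both genes are at 0 in eggs and present at 12 h. From 24 h zygotes to basal cells the mean goes from 9.33 to 2.47 CPM for wox9A and from 7.34 to 13.1 CPM for wox9B, the latter not called. CPM are compared between groups, not between the genes.

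Of 10 further WOX IDs listed by name, 5 (wox4, wus1, wus2, wox5B and wox3A) had 0 counts in all 18 libraries, and 3 passed the filter on low counts: wox9B, wox13B and wox2A. wus1 and wus2 are the maize relatives of WUSCHEL, the stem cell regulator of the shoot tip. From egg to 12 h, wox9B alone of the 3 rose and none fell, where 19.4% of all genes were called higher and 18.1% lower. None of the 3 was called in either daughter cell against the 24 h zygote. Of all genes, 24.9% were called in the apical and 18% in the basal cell. With library size only, 2 of the 3 rose from egg to 12 h and 1 was lower in the apical cell than at 24 h. A list of 3 genes is too short to set these counts apart from the shares over all genes.

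wox13B, the namesake of wox13A, was also higher in sperm than in egg, but less far: 6.65 ± 2.14 CPM against 1.66 ± 0.598 CPM (SD, n = 3), a log2 fold change of 1.95 ± 0.68 (edgeR adjusted p = 0.0186). That call was lost with library size only and without egg replicate 1 or sperm replicate 1. Its sperm mean was its highest, with 4.98 and 5.54 CPM in the 12 h and 24 h zygotes and 4.70 and 5.73 CPM in the apical and basal cells. wox2A, whose Arabidopsis relative acts in the apical lineage, was lower in sperm than in egg (-4.43 ± 1.16, edgeR adjusted p = 0.00316). Its mean was 3.76 ± 0.563 CPM in the 24 h zygote, 0.933 ± 0.733 CPM in the apical cell and 1.73 ± 0.504 CPM in the basal cell (SD, n = 3), and neither daughter cell was called against the 24 h zygote (edgeR adjusted p = 0.0890 and 0.332).

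The 6 other HD-ZIP IV genes, ocl1, ocl3, ocl4, ocl5, OCL6 and OCL8, all passed the filter. In the sperm libraries each was at or near 0, between 0 and 0.169 CPM on average, and 5 of 6 were called lower than in egg, against 39.3% of all genes; ocl5 was at 0 in eggs too. From egg to 12 h, 4 rose and 0 fell, where 19.4% of all genes were called higher and 18.1% lower, with a median log2 fold change of 1.32 against 0.06 over all genes. OCL8 led with 26.5 ± 10.5 CPM in eggs and 100.0 ± 24.7 CPM at 12 h (SD, n = 3; log2 fold change 1.95 ± 0.33, edgeR adjusted p = 0.000752). The 4 rising genes became 2 without egg replicate 3, zygote 12 h replicate 1 or zygote 12 h replicate 3. None of the 6 was called between 12 h and 24 h, where 1.04% of all genes were called.

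In the apical cell 4 of the 6 fell against the 24 h zygote and 0 rose, where 11.8% of all genes were called lower and 13% higher, with a median of -1.70 against -0.13 over all genes. In the basal cell 3 fell and 0 rose, where 8.15% of all genes were called lower and 9.81% higher, with a median of -1.23 against -0.20; the 3 became 1 without basal cell replicate 1, basal cell replicate 3 or zygote 24 h replicate 3. ocl4, which in maize acts in the epidermal layer and in anther development, was at 15.5 ± 2.58 CPM in the 24 h zygote, 2.66 ± 1.63 CPM in the apical cell and 0.977 ± 0.693 CPM in the basal cell (SD, n = 3). Its fall reached -4.02 ± 0.61 in the basal cell (edgeR adjusted p = 0.00139) and -2.59 ± 0.56 in the apical cell (edgeR adjusted p = 0.00575). ocl1, the founding outer cell layer gene, had 222 ± 1.68 CPM in the 24 h zygote, 137 ± 20.6 CPM in the apical cell and 121 ± 1.62 CPM in the basal cell (SD, n = 3), the last called lower at -0.93 ± 0.30 (edgeR adjusted p = 0.0465). OCL14 was thus at 2.67% and 2.21% of its peak in apical and basal cells, where ocl4 was at 9.75% and 3.58% and ocl1 at 61.8% and 54.6% of theirs.

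**Figure D4:**
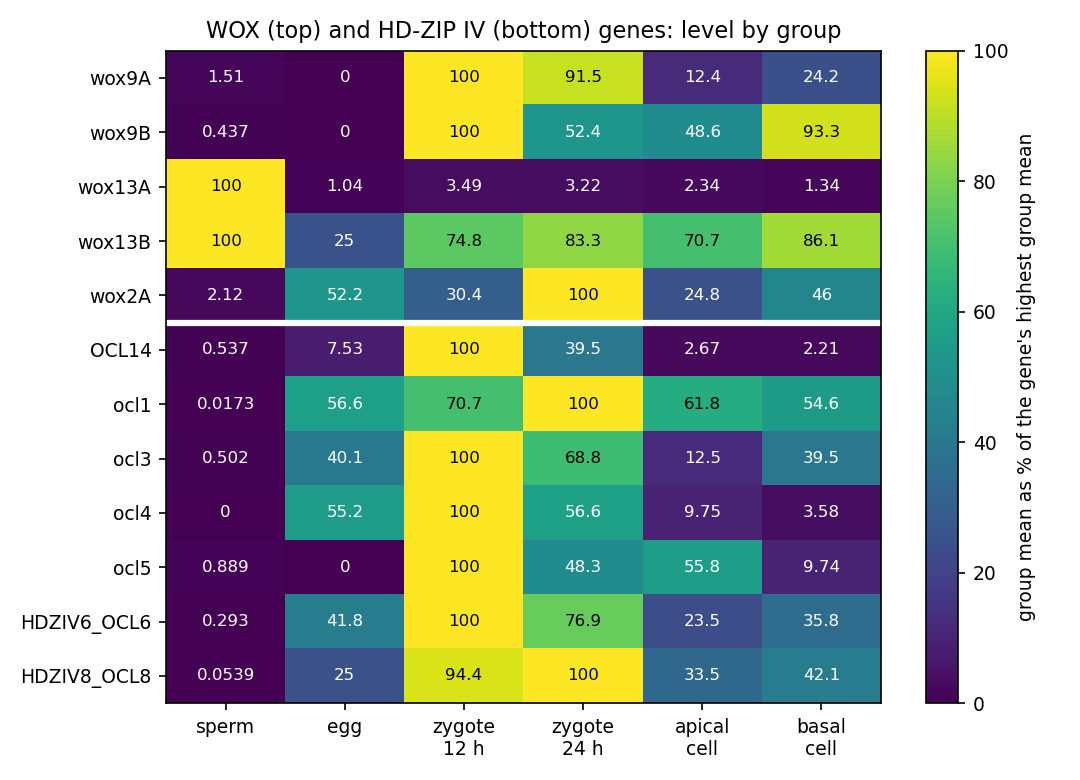
Mean level in each group as a percentage of the gene's own highest group mean (colour and numbers), for 5 WOX genes above the white line and 7 HD-ZIP IV genes below it. OCL14, ocl4 and wox9A are low in both daughter cells, and wox13A stands at 3.49% of its sperm level or less in every other group.

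Over the 18 libraries, log2(CPM + 1) of wox9A and OCL14 had a Pearson correlation of 0.816, while wox13A was at -0.264 with wox9A and -0.267 with OCL14. Libraries of a group share their cell type, so these are descriptions. By this measure OCL14 ranked 701 of 18230 IDs in likeness to wox9A, and wox9A ranked 532 in likeness to OCL14. Among 18230 IDs with a mean of at least 5 CPM in some group, the named genes most like wox9A by that measure were MYB145 (r = 0.984), a MYB transcription factor, GRAS76 (r = 0.965), a GRAS transcription factor, and opr3 (r = 0.954), named as an oxophytodienoate reductase. Among all 18230 IDs, named or not, these ranked 2, 17 and 31. MYB145 had means of 22.2 and 14.8 CPM in the 12 h and 24 h zygotes and of 2.39 and 5.27 CPM in the apical and basal cells. The named IDs most like wox13A were its further ID (r = 0.985, rank 2), mlo1 (r = 0.979, rank 6) and por2 (r = 0.971, rank 18). mlo1 is a relative of the barley membrane protein gene Mlo, and por2 is a tonoplast aquaporin gene, at 598 CPM in sperm. The named genes most like OCL14 were aprt1 (r = 0.943, rank 13), an adenine phosphoribosyltransferase gene, AS2 (r = 0.941, rank 16), also named IG1, and the annexin gene Ann9 (r = 0.940, rank 18). Ann9 was at 24.3 CPM at 12 h and 6.80 CPM at 24 h, and at 0 counts in both gametes.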

How the data were processed

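Per the labels' protocols, mRNA of dissected cells was copied and amplified with the SMARTer Ultra Low RNA kit, made into Nextera libraries and sequenced in pairs, without molecular identifiers. The authors deposited raw counts per gene ID, with 0 rows that name no gene and 0 further sample columns. Per the submitters' processing notes, the tools included STAR 2.5.2a, Trimmomatic 0.32, cutadapt 1.13, FastQC, featureCounts and DESeq2, and the build was B73 RefGen_v3. Settings for strand and multi-mapping reads were not given in the sources used.

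The tests ran in edgeR 4.0.16 under R 4.3.3 (TMM, filterByExpr, robust quasi-likelihood fit). Comparisons with sperm came from a fit of all 18 libraries, and the others from the 15 libraries without sperm, which share 1 estimate of the spread. The approximate SE is the absolute log2 fold change over the square root of F. Printed CPM use TMM factors over all genes in 18 libraries, before the filter, so they differ somewhat from the scale of the fits. DESeq2 1.42.0, other scalings and filters, other sets of libraries, a replicate block and leaving out each replicate were alternatives, and the fit was tested on simulated data. No pair of replicates differed by as little as sampling noise (lowest chi-square per gene 22.7).

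The members and lists were chosen with earlier results of these data known. Names came from a reference table of Zm-B73-REFERENCE-NAM-5.0, which matched 18387 IDs to 1 gene and 521 to more; 2548 had an informative symbol or synonym. No coordinates are given, since the counts use another build. The text names the 3 members, the 3 named IDs most correlated with each, and for each list, comparison and direction, the called gene with the lowest adjusted p; other list members were chosen after their values were seen.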

Additional observations from a re-analysis of the deposited data

How the results depend on the processing

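For the 18 results of the 3 genes in 6 comparisons, 290 alternatives gave 264 with the same direction and side of the threshold, 17 that lost a call, 5 that gained one and 4 that changed direction, none of them called. Over leave-one-out fits, those that changed direction ran from -0.459 to 0.0458 for wox9A and from -0.327 to 0.161 for wox13A in 24 h against 12 h zygotes, and from -0.0533 to 0.673 for OCL14 in apical against basal cells. wox9A, basal cell against 24 h zygote, lost its call with no filter (-2.01), the replicate block (-1.97, adjusted p = 0.0647) and all 18 libraries (-1.93), and over leave-one-out fits ran from -2.14 to -1.64; adjusted p over its alternatives ran from 0.000675 to 0.137. wox9A, sperm against egg, lost its call with library size only (3.41) and the replicate block (4.32), and over leave-one-out fits ran from 0 to 5.12; a fit of the 2 groups alone gave no value because the gene did not pass the filter. wox13A, 12 h zygote against egg, was not called with the 2 groups alone (1.97) and over leave-one-out fits ran from 1.51 to 2.01; adjusted p over its alternatives ran from 0.000908 to 0.0769. wox13A, basal cell against 24 h zygote, gained a call with all 18 libraries (-1.28), the 2 groups alone (-1.34) and DESeq2 (-1.33), and OCL14, 24 h against 12 h zygote, with the 2 groups alone (-1.34) and DESeq2 (-1.39). Why these calls moved was not tested. With library size only, levels at 12 h were 15.2 CPM for wox9A, 14.6 CPM for wox13A and 36.8 CPM for OCL14, and at 24 h 12.9, 12.4 and 13.5 CPM, and wox13A in sperm was at 134 CPM; TMM factors were 0.454 to 0.502 in sperm. The labels do not say whether equal replicate numbers mark a shared plant or batch. Same-numbered apical and basal libraries deviated together with r = 0.382, 0.449 and -0.0567, in no comparison did all 3 pairs exceed 0.1 or every library correlate best with its own number, and the numbers were not treated as pairs. With the replicate block, wox13A in 24 h zygotes against egg lost its call (adjusted p = 0.0550), other homeobox genes lower than in egg at 12 h went from 4 to 1 and those lower in the basal cell from 1 to 0, and embryo regulators lower in sperm from 2 to 1. OCL14 in sperm against basal cells gained a call with the block (edgeR adjusted p = 0.0498). Counts of 10 in the apical cell for wox9A and of 5 in the basal cell for OCL14 limit the daughter-cell values.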

Other observations

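Other homeobox families and embryo regulators were listed beside the 3 genes. A gene high in 1 group can pass the filter on low counts through that group alone. Counts of rising or falling genes among those tested are therefore descriptions. Of 8 tested KNOX and BEL genes, 2 rose from egg to 12 h and 0 fell, against 19.4% and 18.1% of all genes: lg3, at 0.337 ± 0.584 and 7.92 ± 3.96 CPM (SD, n = 3), and kn1, the shoot meristem gene knotted1, at 0.0241 and 4.53 CPM on average. The kn1 libraries at 12 h were at 1.28, 12.2 and 0.121 CPM, so replicate 2 carried most of the mean; the count was 1 without that library, 5 without egg replicate 1, 4 with RLE size factors and 5 with library size only. In the daughter cells lg4b fell from 2.79 ± 2.04 CPM at 24 h to 1 count in apical and 0 in basal libraries (edgeR adjusted p = 0.00207 and 0.00231). KNOX and BEL genes lower than at 24 h numbered 3 in the apical cell and 2 in the basal cell, against 11.8% and 8.15% of all genes; these became 1 without apical cell replicate 2 or zygote 24 h replicate 3, and 1 without basal cell replicate 1, basal cell replicate 3 or zygote 24 h replicate 3. Sperm was higher than egg in 1 of the 8, knox7 (20.5 ± 2.47 against 2.20 ± 0.455 CPM, SD, n = 3), and lower in 3, lg4 with the smallest p, against 24.7% and 39.3% of all genes.

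Of 16 tested other homeobox genes, 5 rose from egg to 12 h and 4 fell, against 19.4% and 18.1% of all genes. HB128, at 0 counts in eggs and 1.75 ± 1.22 CPM at 12 h, led the rising ones, and hox1a, at 35.8 ± 2.24 and 15.0 ± 5.16 CPM (SD, n = 3), the falling ones. The 4 became 0 with library size only, 1 without egg replicate 3 or zygote 12 h replicate 1, and 2 without zygote 12 h replicate 2 or 3. Hox2a moved opposite to OCL14 after division: its mean was 22.7 ± 7.34 CPM in the 24 h zygote, 135 ± 46.3 CPM in the apical cell and 108 ± 19.5 CPM in the basal cell (SD, n = 3), with log2 fold changes of 2.51 ± 0.32 and 2.20 ± 0.32 (edgeR adjusted p = 0.000397 and 0.00118). In each daughter cell 3 of the 16 rose and 1 fell, HB115 in the apical and HB131 in the basal cell, where 13% and 9.81% of all genes rose and 11.8% and 8.15% fell. The 1 became 0 without any 1 library of its comparison, and 2 in the apical cell with library size only. The 3 in the basal cell became 1 without basal cell replicate 2 or 3 or any 1 of the 24 h libraries. In sperm against egg 2 were higher and 8 lower, against 24.7% and 39.3% of all genes, hox1a and HB131 with the smallest p.

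Of 11 listed embryo regulators outside the homeobox families, 5 passed the filter and were tested. Of the 5, 3 rose from egg to 12 h and 0 fell, against 19.4% and 18.1% of all genes. All 3 had 0 counts in eggs: lec1, known in Arabidopsis as LEAFY COTYLEDON1, PIN10a and PIN1a, the last 2 by name auxin efflux carriers. PIN1a held 7 to 24 counts per library at 12 h and at most 9 in any other library. It passed the filter through the group where it was high, so its rise does not support a pattern of the list. lec1 was at 8.90 ± 3.02 CPM at 12 h (SD, n = 3), at least 133-fold above the egg floor (edgeR adjusted p = 0.000117). No member was called in either daughter cell against the 24 h zygote, where 24.9% of all genes were called in the apical and 18% in the basal cell. In sperm against egg, PIN10a was higher and 2 were lower, against 24.7% and 39.3% of all genes. The PIN10a call rested on 11 counts in sperm, from 0 to 6 per library, against 0 in eggs. Of the lower ones, vp1 had the smallest p. The 2 became 1 with RLE size factors and without egg replicate 1 or 3 or any 1 sperm library.

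Apical cell replicate 3 was the lowest apical library for wox9A (0.485 CPM), wox9B (0.970 CPM), wox2A (0.339 CPM), wox13B (1.55 CPM) and lec1 (1.26 CPM). These genes were picked with the values in view, and not every listed gene shared the pattern. Of the 3 members, OCL14 was also lowest there (0.533 CPM). By contrast, wox13A was lowest in apical cell replicate 1, at 3.75 CPM against 4.07 CPM in replicate 3. CPM are shares of a library, so they cannot show a library that is low over all genes. Why these genes were low in replicate 3 was not tested.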
